A study of Oryza sativa Indica Group with 12 samples.

Results

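RNAPII anchors that lay away from every H3K4me3 anchor were described in MH63 (Minghui 63) and ZS97 (Zhenshan 97), 2 varieties of rice. An anchor is the genomic interval at one end of a chromatin loop. Overlapping anchor intervals of the RNAPII loop list were joined, and a joined anchor was kept when no H3K4me3 anchor of the same variety overlapped it or came within 5 kb of it. The members were thus chosen by the listed positions of the RNAPII and H3K4me3 anchors, so that values by distance to H3K4me3 are a description. These intervals are called lone anchors below, and all remaining joined RNAPII anchors are called the other anchors. In MH63, 1993 of 7260 joined RNAPII anchors were lone (27.5%, Wilson 95% interval 26.4 to 28.5), and in ZS97 1184 of 6901 were (17.2%, 16.3 to 18.1), which gave 3177 of 14161 over both varieties.

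The loops came from ChIA-PET, in which crosslinked chromatin is enriched with an antibody, ligated and sequenced, and every paired-end tag (PET) reports a contact between 2 stretches of DNA. Young leaves of 2-week-old MH63 and ZS97 seedlings, both unmodified indica rice, were profiled with antibodies against RNAPII, H3K4me3 and H3K9me2. There were 2 replicate libraries per variety and antibody, 12 in all, and the authors called loops on the replicates combined. The lists therefore held no spread between replicates, and a leaf holds several cell types, so that a loop in a part of the cells and a weak loop in all of them cannot be told apart.

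RNAPII is the polymerase that transcribes protein-coding genes, and an RNAPII loop links stretches of chromatin that it occupies. H3K4me3 marks the starts of active genes, and in plants it often covers the first part of the gene body. H3K9me2 marks silent heterochromatin, which in rice is dense around the centromeres and over transposons. A lone anchor is one without a listed H3K4me3 loop end nearby, which is not the same as lacking the mark. H3K4me3 sites that form no called loop, or only loops between chromosomes, were not analysed here.

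The RNAPII lists held 17160 loops in MH63 and 13012 in ZS97, carrying 191725 and 197758 PETs. The lowest PET count of a listed RNAPII loop was 4 in MH63 and 6 in ZS97. The H3K4me3 lists held 9714 loops in MH63 and 12279 in ZS97 and gave 10855 and 11960 joined anchors. ZS97 thus had more H3K4me3 anchors and a smaller share of lone RNAPII anchors than MH63, and the lists differed in their lower PET limit. The libraries also differed in depth. The paper counts more uniquely mapped RNAPII PETs in ZS97 than in MH63, and more H3K4me3 PETs in MH63 than in ZS97. With MH63 loops of at least 6 PETs, 24.0% of its RNAPII anchors (22.9 to 25.2) were lone. Each variety was read in the coordinates of its own genome. All intervals below are 95% intervals that cover counting error only, treat anchors, links and loop ends as independent and say nothing of replicate spread. No p-value was computed, and the number of the 12 chromosomes on which a direction held is given instead.

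Most lone anchors lay within 100 kb of an H3K4me3 anchor. Their median distance to the nearest H3K4me3 anchor was 19.4 kb in MH63 (quartiles 8.84 and 51.7 kb) and 11.8 kb in ZS97 (quartiles 7.04 and 27.7 kb). In MH63, 1010 lay at 5 to 20 kb, 707 at 20 to 100 kb and 276 beyond 100 kb. In ZS97 the numbers were 782, 324 and 78. The counts passed through the limit without a gap. In MH63, 382 anchors lay between 5 and 7.5 kb from an H3K4me3 anchor and 196 between 4 and 5 kb, and in ZS97 343 and 251. The 3 lone anchors nearest to the limit were 5.01 to 5.02 kb from an H3K4me3 anchor in MH63, and the 3 other anchors nearest to it were 4.97 to 4.98 kb away. Those on the lone side were 0.734, 0.65 and 0.581 kb wide with 3, 1 and 1 partners, and those on the near side were 0.62, 1.51 and 0.48 kb wide with 1, 2 and 1 partners. In ZS97 the nearest lone anchors, all at 5.02 kb, were 0.586, 2.17 and 1.54 kb wide with 1 partner each. The nearest other anchors in ZS97, at 4.98 to 5 kb, were 0.582, 0.513 and 1.81 kb wide with 2, 2 and 1 partners. The anchors on either side of the limit overlapped in width and in partners.

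**Figure D1:**
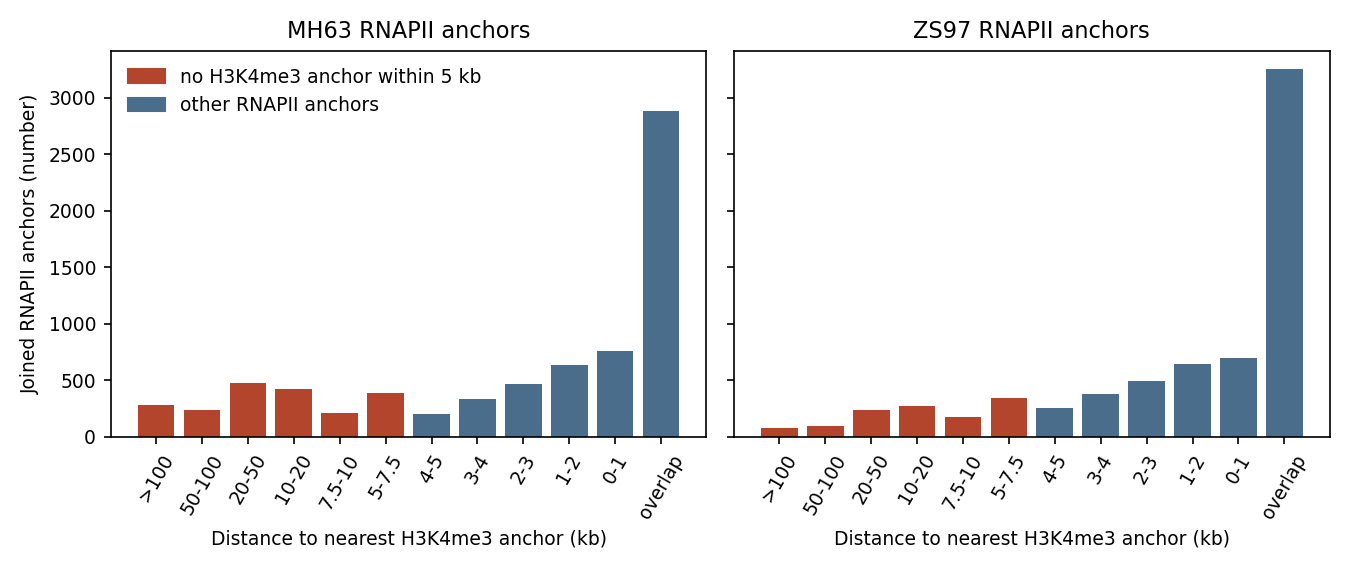
Number of joined RNAPII anchors by distance to the nearest H3K4me3 anchor of the same variety (kb, unequal bins), MH63 on the left and ZS97 on the right, with lone anchors in red and other anchors in blue. Overlap was the largest class in both varieties, with 2885 anchors in MH63 and 3253 in ZS97, and the lone anchors formed a tail that reached beyond 100 kb in 276 and 78 cases.

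Lone anchors were spread over all 12 chromosomes of each variety. Their share of the RNAPII anchors was highest on chromosome 11 in both, at 43.7% in MH63 (93 of 213) and 28.1% in ZS97 (50 of 178). It was lowest on chromosome 3, at 19.5% in MH63 (240 of 1229) and 13.1% in ZS97 (150 of 1144). Chromosome 3 had 1229 and 1144 joined RNAPII anchors in MH63 and ZS97, the most in MH63, and chromosomes 11 and 12 had the fewest in both.

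Within chromosomes, lone anchors lay closer to H3K9me2-rich chromatin than the other RNAPII anchors did. For each chromosome the 5 Mb window with the most H3K9me2 anchor bases was found, as a stand-in for its most heterochromatic stretch. These windows held 10.5% of lone anchors against 3.19% of other anchors in MH63, and 10.3% against 3.60% in ZS97, higher for lone anchors on all 12 chromosomes of both varieties. Inside the windows, 209 of 377 MH63 RNAPII anchors were lone (55.4%, 50.4 to 60.4), and outside them 1784 of 6883 (25.9%). In ZS97 122 of 328 were lone inside (37.2%, 32.1 to 42.5) and 1062 of 6573 outside (16.2%). The share fell with distance from the window's centre. In MH63 it was 55.4% within 2.5 Mb, 45.4% at 2.5 to 5 Mb, 31.8% at 5 to 10 Mb, 21.9% at 10 to 15 Mb and 19.4% beyond 15 Mb. In ZS97 the same bins gave 37.2%, 29.3%, 18.6%, 13.2% and 13.7%, so that the last step was level. H3K4me3 anchors, which the rule used, were also sparse in these windows, with 7.2 per Mb inside against 34.8 per Mb outside in MH63 and 10.0 against 39.6 in ZS97. RNAPII anchors were sparse there as well, at 6.28 per Mb inside against 23.0 outside in MH63 and 5.47 against 22.9 in ZS97. How much of the higher share follows from the lower density of H3K4me3 anchors was not tested.

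**Figure D2:**
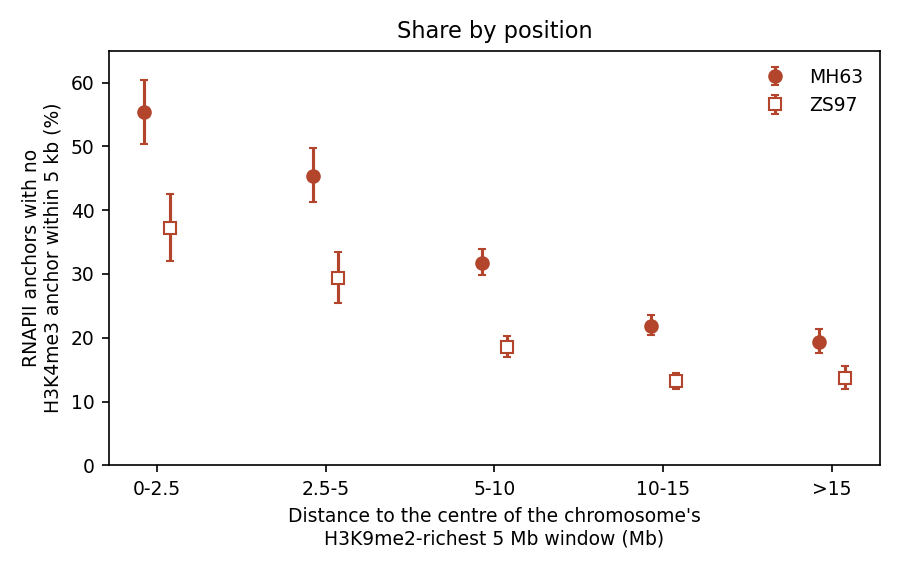
Share of RNAPII anchors that were lone (%), by distance to the centre of the chromosome's H3K9me2-richest 5 Mb window (Mb), for MH63 (filled circles) and ZS97 (open squares), with Wilson 95% intervals. The share was highest in the innermost bin, 55.4% in MH63 and 37.2% in ZS97, and was 19.4% and 13.7% beyond 15 Mb.

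The ends of the chromosomes held fewer of them. Within 2 Mb of the first base or of the last listed anchor end lay 11.3% of lone anchors against 19.9% of other anchors in MH63, lower on all 12 chromosomes. In ZS97 the values were 12.6% against 18.9%, lower on 9 of 12 (not on 1, 3 and 7).

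Lone anchors met H3K9me2 anchors directly more often than the other anchors, although few of them did. In MH63, 84 of 1993 lone anchors overlapped an H3K9me2 anchor by at least 1 bp (4.21%, 3.42 to 5.19), against 99 of 5267 other anchors (1.88%, 1.55 to 2.28), with 2.52% of all RNAPII anchors as background. The difference was 2.34 percentage points (1.44 to 3.36) and held on 11 of 12 chromosomes, all but 11. In ZS97, 39 of 1184 lone anchors (3.29%, 2.42 to 4.47) and 93 of 5717 other anchors (1.63%, 1.33 to 1.99) did so, with a background of 1.91%. The difference of 1.67 points (0.72 to 2.88) held on 8 of 12 chromosomes (not on 4, 6, 7 and 8). The overlap was not limited to edges. At least 50% of the anchor lay under H3K9me2 anchors for 1.81% of lone against 0.38% of other anchors in MH63, and for 1.69% against 0.332% in ZS97. In MH63, 18 lone and 6 other anchors were wholly covered, and in ZS97 13 and 9. Of the bases in lone anchors, 2.53% were covered in MH63 and 2.52% in ZS97, against 0.705% and 0.693% of the bases in other anchors.

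The difference rested partly on which anchors were compared. In MH63 lone anchors were 1.86 points (0.847 to 2.95) above the anchors that overlapped H3K4me3, on 10 of 12 chromosomes, and 2.91 points (1.95 to 3.96) above those 0 to 5 kb away. Anchors 0 to 5 kb away were narrower than lone anchors, and this comparison was not repeated at equal width. In ZS97 the excess over overlapping anchors was 1.11 points (0.0716 to 2.37) and held on 6 of 12 chromosomes. When anchors were called lone on overlap alone, with no margin, the difference was 0.272 points (-0.485 to 0.986) in MH63 and -0.51 points (-1.18 to 0.139) in ZS97, and both intervals included 0. Among anchors of 1 to 3 kb, 2.91% of lone against 1.28% of all other anchors overlapped H3K9me2 in MH63, a difference of 1.63 points (0.459 to 3.11). In ZS97 the shares were 3.3% against 1.1%, a difference of 2.2 points (0.777 to 4.3).

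The overlap also varied with position. Within the H3K9me2-richest windows, 14.8% of lone anchors (31 of 209) and 18.5% of other anchors (31 of 168) overlapped H3K9me2 in MH63, a difference of -3.62 points (-11.4 to 3.87). In ZS97 the values inside the windows were 12.3% (15 of 122) and 8.74% (18 of 206), a difference of 3.56 points (-3.05 to 11.2). Both intervals included 0. Outside the windows lone anchors still overlapped more often, at 2.97% against 1.33% in MH63 and 2.26% against 1.36% in ZS97, with differences of 1.64 points (0.86 to 2.57) and 0.899 points (0.087 to 2.01). This direction held on 9 of 12 chromosomes in MH63 (not on 2, 7 and 11) and on 7 of 12 in ZS97 (not on 4, 6, 7, 8 and 9).

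A wider view gave the same order. The midpoint of the anchor lay under at least 1 H3K9me2 loop of up to 1 Mb for 25.9% of lone anchors (24.0 to 27.9) against 11.4% of other anchors (10.5 to 12.3) in MH63. In ZS97 it did for 24.4% (22.0 to 26.9) against 13.7% (12.8 to 14.6). Lone anchors were higher on all 12 chromosomes of both varieties. H3K9me2 loops of this size covered 36.7% of the listed chromosome length in MH63 and 37.5% in ZS97, so that lone anchors were still under them less often than an even spread along the chromosomes would give.

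The overlap with H3K9me2 was more frequent the farther a lone anchor lay from H3K4me3. Of MH63 anchors more than 100 kb from an H3K4me3 anchor, 9.42% overlapped an H3K9me2 anchor and 65.9% lay under H3K9me2 loops. At 20 to 100 kb these shares were 4.53% and 25.5%, and at 5 to 20 kb 2.57% and 15.2%. ZS97 anchors gave 11.5% and 55.1% beyond 100 kb, 5.25% and 31.5% at 20 to 100 kb, and 1.66% and 18.4% at 5 to 20 kb. The nearest lone class, at 5 to 20 kb, was thus close to the other anchors, of which 1.30% at 0 to 5 kb and 2.36% of those overlapping H3K4me3 met an H3K9me2 anchor in MH63, and 0.893% and 2.18% in ZS97. Of the 276 and 78 farthest anchors, 35.9% in each variety lay in the H3K9me2-richest windows.

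The lone anchors that overlapped H3K9me2 were wider and farther from H3K4me3 than the remaining lone anchors, which is given as a description without a test. In MH63 their median width was 4.01 kb (2.61 to 5.49, 84 anchors) against 2.20 kb for the remaining lone anchors, and in ZS97 2.67 kb (1.64 to 4.08, 39 anchors) against 1.36 kb. A wider interval meets other intervals more readily, so that width and overlap are not independent. Their median distance to H3K4me3 was 48.2 kb against 18.8 kb in MH63 and 28.1 kb against 11.5 kb in ZS97. The H3K9me2-richest windows held 36.9% of them against 9.32% of the remaining lone anchors in MH63, and 38.5% against 9.34% in ZS97. At least 3 partners were found for 34.5% of them against 29.0% of the remaining lone anchors in MH63 (25.2 to 45.2 and 27.0 to 31.1), and for 35.9% against 19.7% in ZS97 (22.7 to 51.6 and 17.5 to 22.1).

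The most heavily covered lone anchors differed from each other in how they were connected. In MH63, chr4:11612124-11634808, 22.7 kb wide and 212 kb from H3K4me3, had 13.6 kb under H3K9me2 anchors and only 1 partner, 115 kb away. The second in MH63, chr9:2034899-2046576, was 11.7 kb wide, lay wholly under H3K9me2 anchors and had 1 partner and a PET count of 6. In ZS97, chr2:23666729-23691435 was 24.7 kb wide with 13.8 kb under H3K9me2, and it had 21 partners, 10 of them more than 1 Mb away. The second in ZS97, chr1:15607362-15613488, was 6.13 kb wide, wholly covered, and had 4 partners and 74 PETs. H3K9me2 cover was thus found at anchors with a single partner and at an anchor with 21.

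Width and connectivity depended on which other anchors the lone anchors were set against. Lone anchors had a median width of 2.25 kb (2.13 to 2.40) against 3.02 kb (2.88 to 3.12) for all other anchors in MH63, and 1.39 kb (1.28 to 1.52) against 1.91 kb (1.81 to 2.00) in ZS97. The wide ones among the others were those that overlapped an H3K4me3 anchor, with medians of 5.12 kb in MH63 and 3.50 kb in ZS97. Other anchors that lay 0 to 5 kb from H3K4me3 without touching it were narrower than lone anchors, at 1.61 kb in MH63 (lone wider on 12 of 12 chromosomes) and 1.13 kb in ZS97 (11 of 12, not on chromosome 11). Width enters the rule, because a wide interval is more likely to touch an H3K4me3 anchor, and the values are given as a description only.

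A partner is another joined RNAPII anchor on the same chromosome reached by at least 1 listed loop. Lone anchors mostly had 1: 51.2% had a single partner against 33.9% of other anchors in MH63, and 61.1% against 45.1% in ZS97. In ZS97, lone anchors also had fewer RNAPII anchors within 50 kb, a median of 3 against 5, lower on all 12 chromosomes. Whether this bears on the number of partners was not tested. Anchors with at least 3 partners were 29.3% of the lone (583 of 1993, 27.3 to 31.3) against 47.3% of the other anchors (2490 of 5267) in MH63, where the share over all RNAPII anchors was 42.3%. In ZS97 they were 20.2% (239 of 1184, 18.0 to 22.6) against 35.0% (1999 of 5717), with 32.4% over all RNAPII anchors. The difference was -18 percentage points (-20.4 to -15.6) in MH63 and -14.8 points (-17.3 to -12.1) in ZS97, and lone anchors were lower on every one of the 12 chromosomes in both.

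This difference again came against the anchors that overlapped H3K4me3, of which 65.2% in MH63 and 48.5% in ZS97 had at least 3 partners. Against the anchors 0 to 5 kb from H3K4me3 the direction turned. There 29.3% of lone anchors stood against 25.6% (23.9 to 27.4) in MH63, a difference of 3.64 points (0.992 to 6.3) that held on 9 of 12 chromosomes. In ZS97 20.2% stood against 17.1% (15.7 to 18.6), a difference of 3.1 points (0.426 to 5.88) that held on 11 of 12. Lone anchors thus had at least 3 partners slightly more often than anchors beside H3K4me3 and far less often than anchors on it. They were also wider than the anchors beside H3K4me3, and this comparison was not repeated at equal width. By distance the share with at least 3 partners was 19.9%, 30.8% and 30.7% for MH63 anchors beyond 100 kb, at 20 to 100 kb and at 5 to 20 kb, and 23.1%, 20.4% and 19.8% for those of ZS97.

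**Figure D3:**
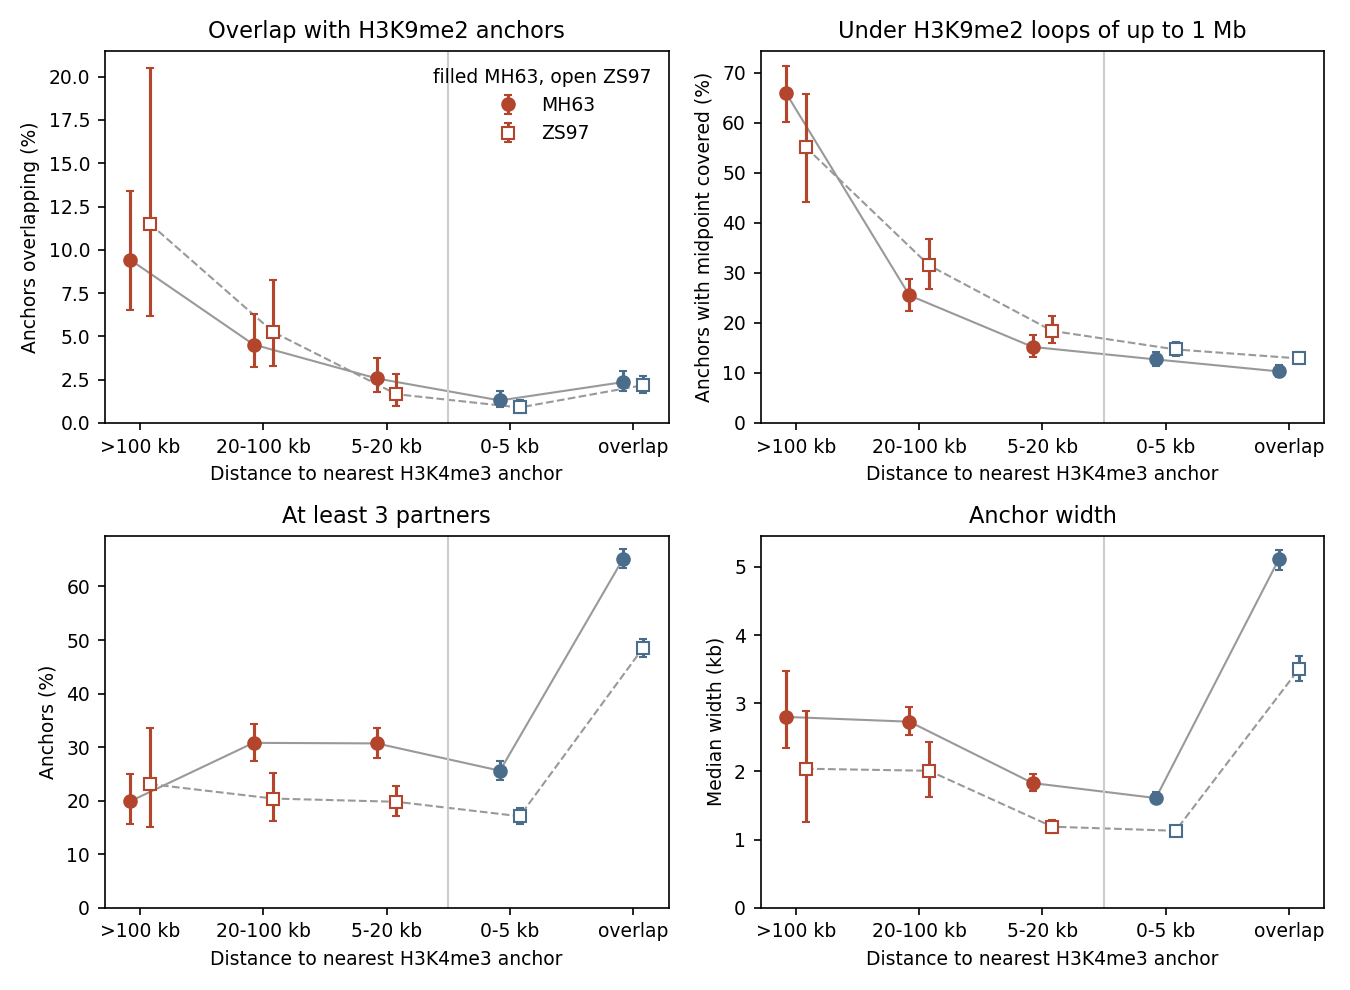
RNAPII anchors in 5 classes of distance to the nearest H3K4me3 anchor, with the 3 lone classes in red left of the grey line and the 2 classes of other anchors in blue right of it, for MH63 (filled circles) and ZS97 (open squares). The panels give the percentage overlapping H3K9me2 anchors, the percentage under H3K9me2 loops, the percentage with at least 3 partners and the median width (kb), with 95% intervals. The H3K9me2 shares were highest beyond 100 kb (9.42% and 11.5% overlapping), whereas partners and width were highest in anchors that overlapped H3K4me3.

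Width and partners went together within both groups. Among anchors of up to 1 kb, 5.53% of lone and 6.42% of other anchors had at least 3 partners in MH63, and 4.72% and 3.54% in ZS97, and the intervals overlapped in both varieties. At 1 to 3 kb the shares were 15.9% of lone and 23.8% of other anchors in MH63 and 16% and 21.2% in ZS97. At 3 to 10 kb they were 52.9% (49.2 to 56.6) and 74.5% (72.7 to 76.2) in MH63 and 48.1% (42.2 to 54.1) and 71.1% (69.0 to 73.1) in ZS97. At equal width class, lone anchors thus had fewer partners from 1 kb up to 10 kb. Above 10 kb only 71 lone anchors of MH63 and 18 of ZS97 remained, and 90.1% and 94.4% of them had at least 3 partners, against 95.9% and 96.4% of the other anchors.

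**Figure D4:**
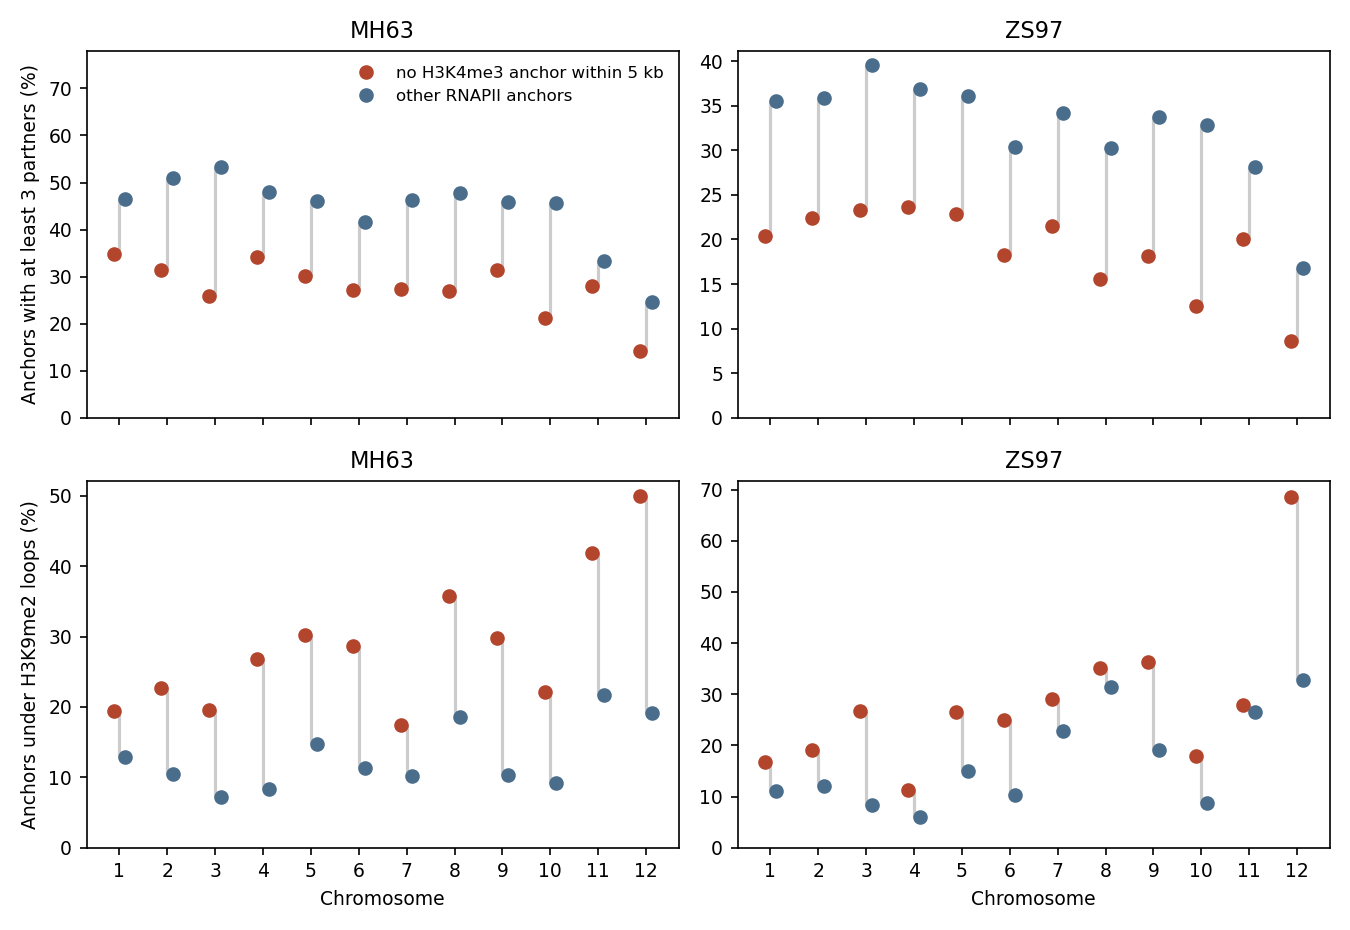
Lone anchors (red, left point) and other anchors (blue, right point) on each of the 12 chromosomes, as the percentage with at least 3 partners (upper panels) and the percentage with their midpoint under H3K9me2 loops of up to 1 Mb (lower panels), MH63 on the left and ZS97 on the right (vertical scales differ). Lone anchors were lower in partners and higher under H3K9me2 loops on all 12 chromosomes of each variety.

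The summed PET count of an anchor, the number of PETs in all its loops, had a median of 10 for lone against 20 for other anchors in MH63 and of 13 against 20 in ZS97. Against the anchors 0 to 5 kb from H3K4me3, whose medians were 11 and 14, lone anchors were close. Per kb of anchor the medians were 6.05 against 8.83 PETs in MH63 and 11.1 against 14.1 in ZS97, lower for lone anchors on all 12 chromosomes of each. A loop over 1 Mb was found at 13.8% of lone against 20.6% of other anchors in MH63, and at 8.36% against 16.1% in ZS97. Anchors with more loops can hold a long one more readily. Of MH63 loops with a lone anchor, 13.2% spanned 1 to 10 Mb and 7.19% more, against 12.9% and 5.7% of loops between other anchors. In ZS97 these shares were 8.09% and 7.16% against 11.9% and 7.98%.

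A small group of lone anchors was nevertheless highly connected. At least 10 partners were found for 102 lone anchors in MH63 (5.12%) against 684 other anchors (13%), and for 25 in ZS97 (2.11%) against 453 (7.92%), where the shares over all RNAPII anchors were 10.8% and 6.93%. In MH63, chr1:36716419-36722504 led with 58 partners, 43 of them more than 1 Mb away, and a summed PET count of 535. On the same chromosome, chr1:4393418-4401143 had 57 partners, 45 beyond 1 Mb, and the highest summed PET count of any lone MH63 anchor, 731. It was followed by chr1:21631909-21638430 with 51 partners and chr2:4406045-4413091 with 47. These 4 anchors were 6.09 to 7.73 kb wide, lay 14.0 to 21.1 kb from an H3K4me3 anchor and met no H3K9me2 anchor.

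The best connected lone anchors of ZS97 were of the same kind. In ZS97, chr1:4459348-4467789 had 63 partners, 50 of them beyond 1 Mb, with the farthest 35.8 Mb away and a summed PET count of 838. Next came chr2:4381198-4389606 with 45 partners, chr4:21328562-21338820 with 35 and chr3:4124105-4128356 with 29. They lay 8.92 to 25.4 kb from H3K4me3. Most partners of all 8 anchors were other anchors, from 37 to 43 of the partners of the 3 leading MH63 anchors on chromosome 1 and 58 of the 63 of the leading ZS97 anchor. Among all lone anchors with at least 10 partners, 45.6% of partner links (43.4 to 47.9) in MH63 and 48.3% (43.8 to 52.8) in ZS97 spanned more than 1 Mb. For other anchors with at least 10 the shares were 34.6% (33.8 to 35.5) and 41.4% (40.4 to 42.5). These intervals treat links as independent, but the 470 ZS97 links came from only 25 lone anchors. The MH63 links are not independent either. The 4 named MH63 anchors had 43 of 58, 45 of 57, 42 of 51 and 33 of 47 partners beyond 1 Mb. How far the MH63 difference rested on them was not tested. The 4 named ZS97 anchors had 50 of 63, 32 of 45, 15 of 35 and 15 of 29 partners beyond 1 Mb. The 4 named ZS97 anchors thus held a large part of the 227 ZS97 links over 1 Mb, and the share without them was not computed. The ZS97 difference is therefore not shown for lone anchors with at least 10 partners in general.

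Some of the widest lone anchors had most of their PETs in loops within themselves. These are loops whose 2 intervals were joined into 1 anchor. In MH63, chr2:14693892-14719180, 25.3 kb wide and 467 kb from H3K4me3, had a summed PET count of 525, of which 376 came from 1 loop inside it. The widest, chr6:7326174-7353017 in MH63, was 26.8 kb and held 3 such loops with up to 141 PETs beside 22 partners. In ZS97, chr2:15256356-15280996 (24.6 kb, 441 kb from H3K4me3) had 649 PETs and an inner loop of 261, and chr12:19370303-19387858 (17.6 kb) had 111 PETs and an inner loop of 65. In MH63, chr3:3847400-3852001 had 565 PETs, second to the sum of 731 above, and 39 partners, with no inner loop. Such inner loops were rarer in lone than in other anchors, at 3.66% against 6.34% of anchors in MH63 and 1.44% against 4.11% in ZS97. In MH63, 3 lone anchors had no partner at all besides an inner loop.

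The 3 anchors farthest from H3K4me3 in each variety had 1 or 2 partners and low PET counts, unlike the wide anchors at 467 and 441 kb above. In MH63 the record was chr4:2758818-2762366, 1673 kb from the nearest H3K4me3 anchor, followed on the same chromosome by chr4:2739494-2740853 at 1654 kb and chr4:3739845-3740651 at 1529 kb. Each had a single loop of 4 PETs, the lowest count the MH63 list holds, and the first 2 were linked to each other over 20.4 kb. In ZS97, chr12:12127272-12127765, chr12:12177060-12178329 and chr12:12114987-12117358 were 532, 531 and 520 kb away, with 1, 2 and 2 partners and no loop above 7 PETs. The first of these 3, 0.494 kb wide, was 52.6% covered by an H3K9me2 anchor.

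Lone anchors took part in 5088 of 16657 loops between different RNAPII anchors in MH63 (30.5%, with 24.9% of their PETs) and in 2387 of 12656 in ZS97 (18.9%, with 15.4% of their PETs). Both ends were lone in 1100 loops in MH63 and 337 in ZS97, and 1 end in 3988 and 2050. Loops with a lone anchor had fewer PETs, with a mean of 8.77 against 11.6 for loops between other anchors in MH63 and of 12 against 15.3 in ZS97, lower on all 12 chromosomes of each. The medians over all spans were 6 PETs for all kinds of loop in MH63 and 8 or 9 in ZS97. Up to 20 kb the medians were 7 with a lone anchor against 8 between other anchors in MH63, and 9 against 11 in ZS97. At 20 to 100 kb they were 6 against 7 in MH63 and 8 against 10 in ZS97. Between 100 kb and 10 Mb the medians were equal, at 5 in MH63 and 8 in ZS97. Among loops with both anchors 1 to 3 kb wide the means were 5.55 against 5.89 PETs in MH63 and 9.75 against 10.5 in ZS97. The log2 ratio of these means was -0.09 (-0.281 to 0.11) in MH63 and -0.11 (-0.293 to 0.0802) in ZS97, and both intervals included 0. Loops from such an anchor to a wider or narrower one were left out there. The gap in means was larger in short loops. Up to 20 kb the means were 12.6 against 18.5 PETs in MH63 and 14.3 against 20.2 in ZS97, while at 1 to 10 Mb they were 6.03 against 6.36 and 9.37 against 9.75.

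Loops between 2 lone anchors were the shortest kind, with a median span of 29.5 kb (27.2 to 33.2) in MH63 and 16.6 kb (14.7 to 17.7) in ZS97. Loops between a lone and another anchor spanned 78.2 kb (72.8 to 85.4) and 36.8 kb (34.5 to 39.3), and loops between other anchors 64.0 kb (61.2 to 67.3) and 41.0 kb (39.2 to 42.8). All loops with a lone anchor spanned 62.5 kb (59.8 to 66.4) in MH63, whose interval overlapped that of the loops between other anchors, and on 8 of 12 chromosomes they were the longer ones. In ZS97 they spanned 32.0 kb (30 to 34.4), which was shorter and held on 8 of 12 chromosomes (not on 4, 6, 9 and 12). The direction of this difference turned under several other settings, given at the end. Among lone anchors, spans were longer the farther the anchor lay from H3K4me3. The loops of anchors beyond 100 kb had a median span of 298 kb in MH63 and 240 kb in ZS97, those at 20 to 100 kb 89.5 and 64.1 kb, and those at 5 to 20 kb 41.4 and 23.2 kb. Loops of other anchors that overlapped H3K4me3 spanned 77.8 and 46.0 kb, and those of other anchors 0 to 5 kb away 28.6 and 21.4 kb.

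Loops from a lone anchor led to another lone anchor more often than loops from other anchors did. Of the loop ends leaving lone anchors, 35.6% (34.4 to 36.8) led to a lone anchor in MH63, against 14.7% (14.3 to 15.1) of those leaving other anchors, and 18.6% of all loop ends sat at lone anchors. In ZS97 the shares were 24.7% (23.2 to 26.4) against 9.08% (8.71 to 9.46), with 10.8% of all ends at lone anchors. The order held on all 12 chromosomes of both. Lone anchors were also neighbours along the chromosome. The next RNAPII anchor was lone after 54.5% of lone against 17.1% of other anchors in MH63, and after 44.6% against 11.4% in ZS97, and the rule itself favours this, since a stretch without H3K4me3 anchors makes every RNAPII anchor in it lone.

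The excess was largest in short loops. Up to 20 kb, 55.3% of ends from lone anchors led to a lone anchor against 11.5% from other anchors in MH63, and 38.3% against 9.46% in ZS97. At 100 kb to 1 Mb the shares were 22.2% (19.9 to 24.6) against 14.4% (13.6 to 15.3) in MH63 but 8.42% (5.72 to 12.2) against 7.93% (7.06 to 8.90) in ZS97. Beyond 10 Mb they were 26.1% (22.2 to 30.5) against 19.1% (17.3 to 21.1) in MH63 and 4.57% (2.33 to 8.76) against 9.25% (8 to 10.7) in ZS97. In MH63 the difference beyond 10 Mb was 7.04 points (2.6 to 11.8). The 55 loops between lone anchors behind it were each counted at both ends, so that this interval is too narrow. In ZS97 the difference was 0.49 points (-2.38 to 4.39) at 100 kb to 1 Mb and 0.902 points (-2.28 to 5.57) at 1 to 10 Mb, and an excess was not detectable at these numbers of loops. Beyond 10 Mb the ZS97 direction turned, to -4.68 points (-7.33 to -0.309), on 4 loops between lone anchors. Those 4 loops were counted at both ends, so that this interval does not settle the direction.

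**Figure D5:**
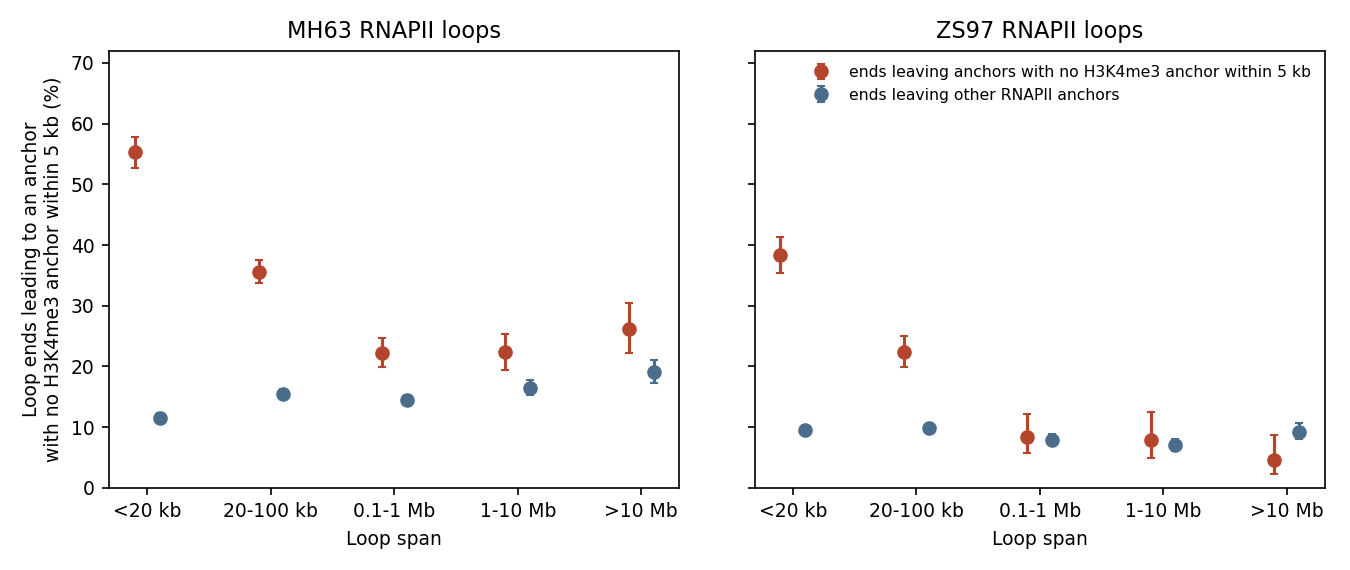
Share of loop ends that led to a lone anchor (%), for ends leaving lone anchors (red, left point) and other anchors (blue, right point), by loop span, with Wilson 95% intervals that treat ends as independent, MH63 on the left and ZS97 on the right. In loops of up to 20 kb the shares were 55.3% against 11.5% in MH63 and 38.3% against 9.46% in ZS97, and beyond 10 Mb they were 26.1% against 19.1% in MH63 and 4.57% against 9.25% in ZS97.

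Still, most lone anchors were tied to the rest of the network. In MH63, 30.1% of those with a partner had only lone partners, 43.3% only other partners and 26.6% both, and in ZS97 22.5%, 62.2% and 15.3%. Within the listed loops, groups of anchors connected to each other but to no other anchor numbered 81 in MH63, holding 220 lone anchors, and 44 in ZS97, holding 101. Most were single pairs, 52 in MH63 and 39 in ZS97. The largest in MH63 joined 8 anchors over 80.1 kb, from 14965384 to 15045457 on chromosome 10, by 11 loops of 4 to 35 PETs, and these anchors were 62.9 to 120 kb from H3K4me3. The largest in ZS97 joined 9 anchors within 24.2 kb, from 4512131 to 4536316 on chromosome 10, by 14 loops of 6 to 19 PETs, 61.5 to 84.3 kb from H3K4me3. None of the anchors in these 2 groups overlapped H3K9me2.

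Runs of neighbouring RNAPII anchors that were all lone reached 20 in MH63 and 11 in ZS97. Runs of at least 5 numbered 87 in MH63 with 600 lone anchors (30.1%), and 29 in ZS97 with 185 (15.6%). The longest in MH63 stretched over 1442 kb of chromosome 4, from 11038728 to 12480518, with widths of 0.315 to 22.7 kb and 1 to 41 partners. Its anchors were linked by 18 loops among themselves and by 39 to anchors outside, and 3 of them overlapped H3K9me2. The longest in ZS97 was short and dense, covering 34.9 kb of chromosome 3 from 1135286 to 1170153, with 15 loops inside and 45 to anchors outside.

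The strongest loops between 2 different lone anchors were short. In MH63, 169 PETs joined chr11:16463247-16475267 and chr11:16489743-16498102, 24.7 kb apart. Next were chr1:4373155-4387080 with chr1:4393418-4401143 (139 PETs, 17.2 kb) and chr6:8230211-8237957 with chr6:8240248-8256715 (120 PETs, 14.4 kb). In ZS97 the highest count was 77, between chr4:15429124-15437220 and chr4:15448218-15453207, 17.5 kb apart, followed by 64 PETs over 25.6 kb on chromosome 5 and 59 PETs over 10.1 kb on chromosome 2. The longest such loop spanned 35.6 Mb of chromosome 1 in MH63, from chr1:4393418-4401143 to chr1:39998504-40002389, with 9 PETs. In ZS97 it spanned 28.1 Mb, from chr1:4459348-4467789 to chr1:32597966-32604164, with 8 PETs. In each variety this longest loop started at 1 of its 2 lone anchors with the most partners.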

How the data were processed

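The loop lists, 1 per variety and antibody, were used as deposited. The authors filtered linkers, mapped the tags to each variety's own genome (MH63 or ZS97, from RIGW) with an updated ChIA-PET Tool (version not given in the sources used here), removed redundant PETs, joined the 2 replicates and called clusters between ChIP-seq peaks extended by 10% on both sides, keeping those with FDR below 0.05 and a minimum number of PETs. The PET counts the authors deposited are whole numbers, not normalized. The p-value and FDR columns the authors deposited come from their loop caller, and were used here only to read the listed range. The lists hold intrachromosomal loops, and 1 ZS97 H3K9me2 loop off the 12 chromosomes was left out. The authors also called loops between chromosomes, which the lists do not hold. Partners and H3K4me3 anchors of such loops were therefore not counted. Library totals are not in the lists. PETs per list count only tags in listed loops and do not measure sequencing depth. No columns of other samples were present.

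Overlapping intervals were joined (Python 3.11.15, numpy 2.4.6, pandas 2.3.3), distances were measured edge to edge, and spans between interval midpoints. Shares carry Wilson intervals, differences of shares Newcombe intervals and medians binomial order-statistic intervals (scipy 1.17.1), and connected groups were found with networkx 3.6.1. Joining, distances, partner counts and intervals were tested on simulated data. Regions were named by rank: per variety the 4 lone anchors with the most partners, the 3 widest, the 3 highest in summed PETs, the 3 farthest from H3K4me3, the 2 with the most H3K9me2 cover, the 3 strongest and the longest lone-to-lone loop, the longest run, the largest closed group and the 3 anchors on each side of the limit. The members, measures and lists were chosen with earlier results of these data known. Alternatives covered the distance limit, PET minimums, anchor width, joining gap, H3K9me2 criterion, loop length and each chromosome left out. No gene annotation of either genome was used here, so anchors carry no gene names.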

Additional observations from a re-analysis of the deposited data

How the results depend on the processing

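In all, 111 values were computed under settings other than leaving out a chromosome, and 16 of them changed direction, 50 kept it but fell outside the 95% interval of the reported value, and 45 kept it and stayed inside. Those that stayed inside include the setting without loops whose anchors overlap, which could not change a value. Such loops lie within 1 joined anchor and were already left out of these measures. The lone share was 60.3% in MH63 and 52.9% in ZS97 when only overlap with H3K4me3 was barred, 13.5% and 5.83% with a 20 kb margin, 20.4% and 14.2% with RNAPII loops of at least 10 PETs, 54.2% and 37.0% with H3K4me3 loops of at least 6 PETs, and 24.0% with MH63 RNAPII loops of at least 6 PETs.

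The difference in H3K9me2 overlap (2.34 and 1.67 percentage points in MH63 and ZS97) was 0.272 and -0.51 points when only overlap with H3K4me3 was barred, so that it turned in ZS97, and 3.91 and 4.84 with a 20 kb margin. It was 1.38 in MH63 with H3K4me3 loops of at least 6 PETs, 1.43 in MH63 at 50% cover, and 5.59 and 5.06 for H3K9me2 within 5 kb.

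The difference in anchors with at least 3 partners (-18 and -14.8 points) was -37.9 and -30.4 when only overlap was barred, -15 and -11.8 with H3K4me3 loops of at least 6 PETs, -7.85 and -5.2 among anchors of 1 to 3 kb, -20.5 and -20.7 after joining intervals within 1 kb, and -12.8 in MH63 with RNAPII loops of at least 10 PETs. The comparison with each kind of other anchor was chosen after seeing the data. It gave 3.64 and 3.1 points against anchors 0 to 5 kb from H3K4me3, the opposite direction, and -35.9 and -28.3 against overlapping ones. The log2 ratio of median width (-0.42 and -0.46) was likewise 0.48 and 0.30 against the nearby kind and -1.19 and -1.33 against the overlapping ones. It was -1.46 and -1.53 when only overlap was barred, 0.01 and 0.19 with a 20 kb margin, and -0.69 in ZS97 with RNAPII loops of at least 10 PETs.

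The log2 ratio of median span (-0.03 and -0.36) did not keep its direction. It was -1.85 and -1.93 when only overlap was barred, 0.95 and 1.0 with a 20 kb margin, and 0.44 and 0.21 with H3K4me3 loops of at least 6 PETs. The ratio was 0.26 and 0.29 for loops with both anchors 1 to 3 kb wide, and 0.00 and -0.18 for loops of up to 1 Mb. In MH63 it was also 0.16 and 0.05 with RNAPII loops of at least 6 and 10 PETs. The log2 ratio of mean PETs per loop (-0.41 and -0.35) was -0.09 and -0.11 for loops with both anchors 1 to 3 kb wide and -0.54 in ZS97 with a 20 kb margin.

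The excess of loop ends leading to lone anchors (20.9 and 15.7 points) was 8.05 and 9.6 when only overlap was barred, 32.8 and 26.7 with a 20 kb margin, and 25.8 and 17.7 with RNAPII loops of at least 10 PETs. The excess was 27.8 and 22.7 for loops with both anchors 1 to 3 kb wide, and 24.3 and 18.3 for loops of up to 1 Mb. It was 22.9 with MH63 RNAPII loops of at least 6 PETs and 22.4 in ZS97 with H3K4me3 loops of at least 6 PETs. The causes of these changes were not tested.

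With each chromosome left out in turn, the results ranged in MH63 and ZS97 from 2.17 to 2.61 and 1.26 to 1.93 points for H3K9me2 overlap, from -19.3 to -16.1 and -15 to -14.3 points for partners, from -0.14 to 0.12 and -0.40 to -0.24 for span, from 19.9 to 22.7 and 14.9 to 16.5 points for loop ends, from -0.45 to -0.41 and -0.47 to -0.41 for width and from -0.44 to -0.39 and -0.37 to -0.34 for PETs per loop. The span ratio turned in MH63 without chromosome 3 (0.12) or 7 (0.02).

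No paired analysis was possible because loops were called on both replicates combined. For the same reason no value has a spread between libraries, and the intervals cover counting error only. A loop below 4 PETs (6 in ZS97 RNAPII) is not listed, and H3K4me3 loops under that limit could not be counted. The H3K9me2-richest windows stand in for heterochromatin and were set by the same H3K9me2 lists that gave the overlaps.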
